A study of Mus musculus with 7 samples.

Results

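PU.1 binding sites of myeloid precursors (MPs) that were still listed as peaks after 36 h of RANKL and had no overlapping peak in osteoclasts (OCs) at 72 h are described here. A site was a PU.1 ChIP-Seq peak of MPs on chromosomes 1 to 19 or X with a peak score of at least 17, which corresponded to 10 sequenced tags. It was counted as lost when it overlapped a PU.1 peak of the 36 h library by at least 1 bp and overlapped no PU.1 peak of the OC library. The sites were thus selected on the scores and positions of peaks in the 3 PU.1 lists, and these values are given as a description without a test. The rule left 1621 of the 76243 PU.1 peaks of MPs. Of the 51257 MP peaks that reached the score minimum, 44892 overlapped a 36 h peak, and the 1621 lost sites were 3.61% of these (95% Wilson interval, 3.44% to 3.79%). The remaining 43271 sites had a peak at each of the 3 times and are called kept sites below.

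The libraries came from flushed bone marrow of mice aged 4 to 6 weeks of strain C57BLACK6. MPs were bone marrow myeloid cells grown for 3 days with 50 ng/ml CSF1. The 36 h cells and the OCs received 100 ng/ml RANKL as well, for 36 h and 72 h. For PU.1 and for MITF, 5 µg of antibody was used at each of the 3 times, and a control precipitation of MPs used non-specific IgG, which gave 7 libraries with 1 library per condition. No condition had a replicate, so the intervals below cover counting error among sites and not the spread between cultures. Scores of each list were whole multiples of the value of 1 tag, which was 1.71 in MPs, 1.48 at 36 h and 1.47 in OCs, and the lowest peaks of the PU.1 lists held 6 or 7 tags. Peaks were 150 bp wide in the MP and OC lists and 190 bp wide in the 36 h list, apart from 1 narrower peak in each. In each PU.1 list, each of 5 monocyte and macrophage markers (Csf1r, Itgam, Emr1, Cd68 and Fcgr1) and of 3 osteoclast markers (Acp5, Ctsk and Oscar) was the protein-coding gene nearest to a PU.1 peak. The same held for 4 of 4 granulocyte markers and 1 of 3 B cell markers, so these positions do not tell the labelled cell type from other blood cells.

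PU.1, encoded by Spi1, is an ETS family transcription factor that binds purine-rich DNA with a GGAA core. It is required for macrophages and osteoclasts and for several other blood lineages, and at many of its sites it binds beside a partner such as C/EBP, IRF, RUNX or AP-1 proteins. AP-1 is a dimer of Fos and Jun family proteins, and RANKL signalling in osteoclast precursors depends on it. MITF recognizes E-boxes through its basic region and cooperates with PU.1 at osteoclast genes.

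The following sequences are lost sites, each the MP peak as listed on the plus strand of mm9, 151 bases with both end positions counted. The first 5 were the highest scoring lost sites that held both an ETS core and an AP-1 motif inside the peak and had no OC peak within 1000 bp, since the AP-1 motif was the motif that differed most in percentage points between lost sites and kept sites weighted to their tags. Capitals mark the ETS core GGAAGT, the longer PU.1 motif GAGGAAGT and the AP-1 motif TGANTCA on either strand. These 5 were chosen after their values had been seen.
Cd53, intron of Cd53, chr3:106588111-106588261: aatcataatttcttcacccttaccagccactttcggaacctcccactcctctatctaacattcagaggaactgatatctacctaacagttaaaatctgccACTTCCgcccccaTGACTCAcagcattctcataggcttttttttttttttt
Mdm1, intergenic, chr10:117487421-117487571: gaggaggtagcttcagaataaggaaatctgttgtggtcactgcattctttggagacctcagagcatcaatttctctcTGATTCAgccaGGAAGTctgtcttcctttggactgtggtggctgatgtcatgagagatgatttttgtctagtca
Hk3, intergenic, chr13:55124175-55124325: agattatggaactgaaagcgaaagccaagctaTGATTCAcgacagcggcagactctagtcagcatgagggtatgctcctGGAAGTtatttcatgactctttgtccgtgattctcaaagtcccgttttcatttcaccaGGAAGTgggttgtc
Pin4, intergenic, chrX:99308639-99308789: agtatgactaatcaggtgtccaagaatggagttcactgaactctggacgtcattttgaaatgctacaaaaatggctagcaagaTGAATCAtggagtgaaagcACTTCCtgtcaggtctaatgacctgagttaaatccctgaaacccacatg
Tex2, intron of Pecam1, chr11:106518356-106518506: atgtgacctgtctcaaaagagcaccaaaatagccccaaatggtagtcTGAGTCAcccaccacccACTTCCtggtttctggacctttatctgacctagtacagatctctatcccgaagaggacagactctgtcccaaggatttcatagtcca
The next 4 show other lost sites that the values below turn on. Fam71f1 and Asah2 held the longer PU.1 motif, Mbnl2 held an AP-1 motif without an ETS core, and Klf6 had an OC peak 44 bp away.
Fam71f1, intron of Fam71f1, chr6:29279700-29279850: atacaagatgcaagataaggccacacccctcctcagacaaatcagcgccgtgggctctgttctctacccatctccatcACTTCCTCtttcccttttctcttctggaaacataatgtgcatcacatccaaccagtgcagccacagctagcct
Asah2, intergenic, chr19:32145524-32145674: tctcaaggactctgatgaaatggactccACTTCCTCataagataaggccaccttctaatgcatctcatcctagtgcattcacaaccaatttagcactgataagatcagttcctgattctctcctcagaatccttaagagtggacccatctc
Mbnl2, intron of Mbnl2, chr14:120723524-120723674: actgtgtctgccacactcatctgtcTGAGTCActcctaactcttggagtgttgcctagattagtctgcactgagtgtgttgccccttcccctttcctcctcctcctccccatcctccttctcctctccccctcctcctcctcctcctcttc
Klf6, intergenic, chr13:5888134-5888284: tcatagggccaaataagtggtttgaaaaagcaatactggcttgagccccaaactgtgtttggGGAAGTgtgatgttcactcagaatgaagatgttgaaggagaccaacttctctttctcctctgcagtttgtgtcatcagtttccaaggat
Genes are those of the nearest RefSeq transcript given in the deposited lists, and positions relative to introns and exons come from GENCODE on the same build.

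Most lost sites were weak peaks of MPs. Their MP scores ran from 17.1 to 261.0 with a median of 20.5, against a median of 42.6 for kept sites. In bulk ChIP-Seq, weaker binding and binding in fewer cells cannot be told apart from such scores. Their 36 h scores ran from 10.3 to 279.4 with a median of 17.7. In tags, the median lost site had 12 in MPs and 12 at 36 h, and 1380 of the 1621 sites had fewer than 20 tags in MPs. At the score minimum, the peaks just inside it had a score of 17.1 (10 tags), and 391 of 2555 such peaks with a 36 h peak had no OC peak (15.3%). Just outside it, at a score of 15.4 (9 tags), the number was 523 of 2754 (18.99%).

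**Figure D1:**
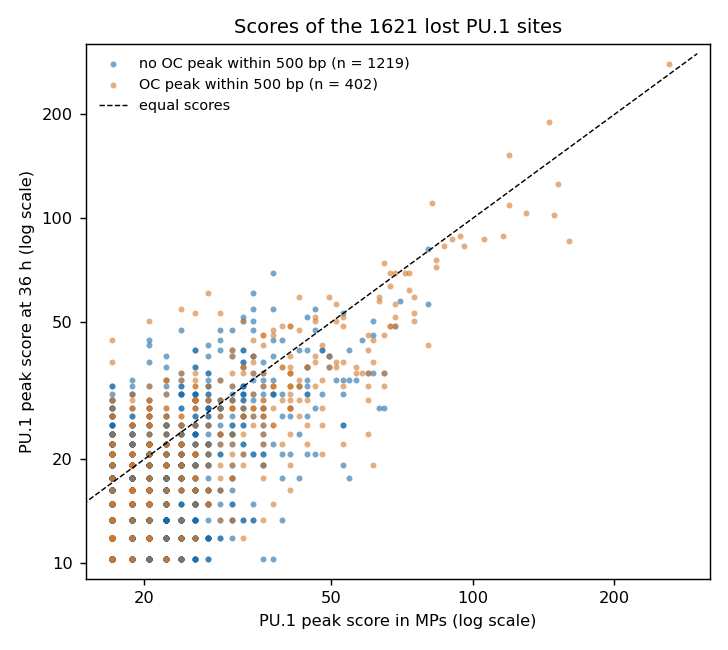
Each point is a lost PU.1 site, with its peak score in MPs on the horizontal axis and at 36 h on the vertical axis, both on log scales. The 402 sites with an OC peak within 500 bp reach a score of 261.0 in MPs, whereas the 1219 sites without one end at 80.2, and the dashed line marks equal scores.

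With the MP score minimum, the 36 h score at lost sites was usually below the MP score. The median log2 ratio of 36 h over MP was -0.35 (95% interval of the median, -0.36 to -0.33), with quartiles of -0.67 and 0.01. This direction depended on the minimum, which was set on the MP score alone. The median was 0.01 without a minimum, -0.01 when the 36 h score also had to reach 17, and -0.22 after 36 h scores were divided by the median ratio of all pairs. With the minimum and scores as deposited, the median was -0.21 at kept sites. Over all overlapping pairs of MP and 36 h peaks, without a minimum, it was -0.12. The difference from kept sites was widest among the weakest peaks. With 10 to 11 MP tags, the median log2 ratio was -0.35 at lost sites and 0.03 at kept sites, and with 30 or more tags it was -0.45 and -0.29. A score at 36 h that was at least 2-fold below the MP score was found at 106 lost sites (6.54%). The same fall was seen at 6.57% of the 44892 sites with a 36 h peak. These pooled shares hide the tag classes. With 10 to 11 MP tags, such a fall would end below the lowest 36 h score of 10.3, and 0 sites had it. In each higher class it was more frequent at lost than at kept sites. The shares were 9.13% and 3.60% with 12 to 14 tags, and 13.04% and 7.85% with 15 to 19. They were 10.7% and 9.57% with 20 to 29 tags, and 12.2% and 7.04% with 30 or more. At 8 of the 1621 lost sites the score was at least 2-fold higher at 36 h than in MPs, beside 469 of the 43271 kept sites. The lowest number of tags in the 36 h list was found at 162 lost and 699 kept sites.

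The share of sites that were lost fell steeply with the number of MP tags. It was 13.15% (633 of 4814) with 10 to 11 tags, 8.08% (471 of 5831) with 12 to 14, 3.83% (276 of 7203) with 15 to 19, 1.804% (159 of 8815) with 20 to 29 and 0.450% (82 of 18229) with 30 or more. The reverse pattern, an MP peak and an OC peak with no 36 h peak between them, was more frequent in each of these classes. It was found at 4000 of the 47271 sites with an OC peak (8.46%, 8.21% to 8.72%), at 22.2% of those with 10 to 11 tags and at 1.77% of those with 30 or more. The 36 h list was also the smallest PU.1 list, with 71941 peaks beside 76243 in MPs and 77072 in OCs. Its peak centers were at least 444 bp apart, beside 370 bp in the MP and OC lists. The part of these list differences, and of tag sampling near the lowest listed score, in either pattern was not tested. By chromosome, the share lost ran from 3.00% (70 of 2332) on chromosome 9 to 4.23% (82 of 1940) on chromosome 15.

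**Figure D2:**
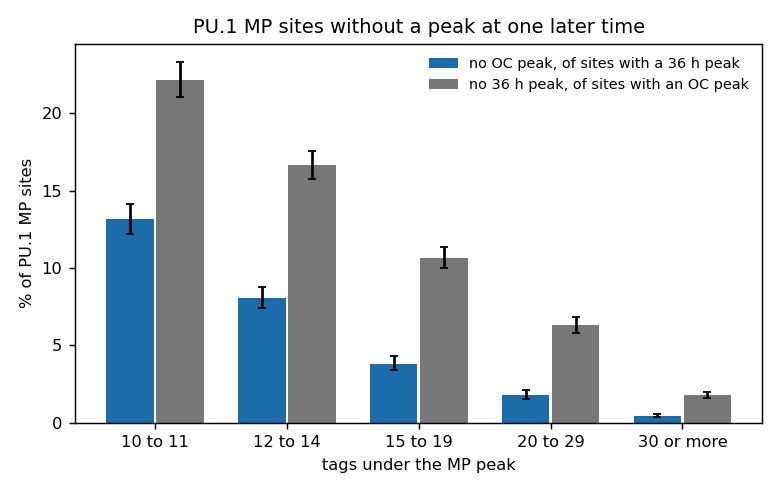
Percent of PU.1 MP sites without a peak at a later time, by tags under the MP peak, with 95% Wilson intervals. Sites with a 36 h peak and no OC peak fall from 13.15% to 0.450% from the weakest to the strongest class, and sites with an OC peak and no 36 h peak fall from 22.2% to 1.77%.

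Many lost sites without an overlapping OC peak had an OC peak beside them. An OC peak lay within 50 bp of 66 lost sites, within 250 bp of 282, within 500 bp of 402 (24.8%, 22.8% to 27.0%), within 1000 bp of 594 and within 10000 bp of 1287. This depended on the MP tags. An OC peak within 500 bp was found at 91 of 633 lost sites with 10 to 11 tags (14.4%, 11.9% to 17.3%) and at 59 of 82 with 30 or more (71.95%, 61.4% to 80.5%). In the OC list the centers of any 2 peaks were at least 370 bp apart, and an OC peak center lay closer than that to 263 lost sites (16.2%, 14.5% to 18.1%), among them 49 of the 82 strongest. Of the 402 neighbouring OC peaks, 298 overlapped no MP peak, and their score was a median 0.30 below that of the lost MP peak on the log2 scale (log2 ratio -0.30). The other 104 overlapped a different MP peak and had a median log2 ratio of 0.21. At 48 of the 402 sites (11.9%), the neighbouring OC peak overlapped the same 36 h peak as the lost MP peak. At those sites the 36 h peak itself still had an overlapping OC peak.

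**Figure D3:**
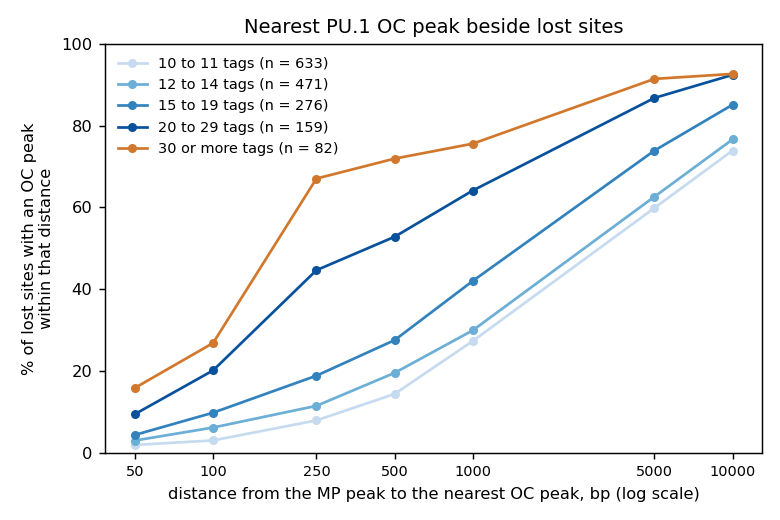
Percent of lost sites with a PU.1 OC peak within a given distance of the MP peak (log scale), by tags under the MP peak. Among sites with 30 or more tags, 67.1% had an OC peak within 250 bp, against 7.90% of sites with 10 to 11 tags.

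The 10 lost sites with the highest MP scores illustrate this, because each had an OC peak within 220 bp. The highest was nearest to Olfml2b, which encodes a secreted olfactomedin-like protein, and lay in an exon of Atf6. Its score was 261.0 in MPs and 279.4 at 36 h, and an OC peak scored 248.2 at a gap of 9 bp. The site in an intron of Cluap1, a ciliary transport gene, scored 160.3 in MPs and 85.7 at 36 h, and the OC peak 5 bp away scored 110.1. The site 27474 bp downstream of the TSS of Klf6, a zinc finger transcription factor, scored 151.8 and 125.6, and the OC peak 44 bp away scored 110.1.
The site upstream of Mir146, whose microRNA dampens NF-kappaB signalling, scored 145.0 in MPs, 190.7 at 36 h and 154.2 in the OC peak 146 bp away. The site upstream of Abcg1, a cholesterol exporter, scored 119.4, 152.2 and 126.3 with an OC gap of 23 bp. At Olfml2b, Mir146 and Abcg1 the score at 36 h was the highest of the 3. At Olfml2b, Cluap1 and Abcg1 the same 36 h peak overlapped both the MP peak and the OC peak, so only the MP position lacked an OC peak.
The others of the 10 included the sites nearest to Tbl1xr1, a co-repressor subunit, to Dbx1, a homeobox gene, and to Arid4a, a chromatin protein, and to an unmatched transcript near Sp100. Their MP scores were 129.6, 119.4, 116.0 and 105.8, in that order, and their 36 h scores were 103.5, 109.4, 88.7 and 87.2. By 36 h score, the 10 highest also included the sites nearest to Rplp1, a ribosomal stalk protein (81.9 in MPs, 110.9 at 36 h), and Lyve1, a hyaluronan receptor of some macrophages and lymphatic vessels (93.8 and 88.7), with OC peaks 236 bp and 91 bp away.

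Most lost sites had no OC peak close by. No OC peak lay within 500 bp of 1219 lost sites, or 2.72% of the 44892 sites with a 36 h peak, and none lay within 1000 bp of 1027 (2.29%). These 1027 sites scored at most 80.2 in MPs, and 20 of them had 30 or more MP tags. For these 20 the median log2 ratio of 36 h over MP was -0.71 (-1.08 to -0.42). At 201 of the 1027 sites the score was at least 20.6, which is 2 times the lowest OC score, both in MPs and at 36 h.

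The sites of this group named here were taken by MP score after the values had been seen. The site in an intron of Cd53, a tetraspanin of leukocytes, lay 4881 bp from the TSS and scored 80.2 in MPs and 56.2 at 36 h, and the nearest OC peak was 4712 bp away. The site in Sla, which encodes a Src-like adaptor, scored 80.2 and 81.3, with the nearest OC peak at 2386 bp. The sites nearest to Egr3, an immediate early zinc finger factor, and Mbnl2, a splicing regulator, scored 68.2 and 64.8 in MPs and 48.8 and 35.5 at 36 h. At Asah2, a neutral ceramidase, the score was 64.8 in MPs and 28.1 at 36 h, and no OC peak was listed within 41049 bp. At Gna14, a G protein alpha subunit, it was 63.1 and 28.1, with the nearest OC peak 16259 bp away. Cd53 and Sla had equal MP scores, and 38 and 55 tags at 36 h in 1 library, a difference that was not tested. Asah2 and Gna14 were already more than 2-fold below their MP score. The site 1504 bp upstream of Hk3, a hexokinase of myeloid cells, scored 54.6 and 41.4, and an OC peak of score 45.5 lay 1368 bp from it.

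Lost sites lay mostly away from promoters, as kept sites did. Of the 1621, 218 lay within 1 kb of a GENCODE TSS (13.45%, 11.9% to 15.2%), 542 at 1 to 10 kb (33.4%), 746 at 10 to 100 kb (46.0%, 43.6% to 48.45%) and 115 beyond 100 kb (7.09%). The median distance was 11525 bp, against 10380 bp for kept sites. Among kept sites, weak peaks were closer to TSSs than strong ones, so kept sites were also weighted to the 5 tag classes of the lost sites. With these weights 16.8% of kept sites (16.2% to 17.4%) lay within 1 kb of a TSS, and the interval of the lost sites lay below this. Lost sites with and without an OC peak within 500 bp were also counted apart, although each kept site overlaps an OC peak by definition. The split also sorted sites by peak density. Another MP peak lay within 1000 bp of 36.07% of the sites with such an OC peak and 14.03% of those without. Of lost sites with no OC peak within 500 bp, 10.1% (8.52% to 11.9%) lay within 1 kb of a TSS, beside 17.1% of kept sites weighted to their tags. Of lost sites with an OC peak within 500 bp, 23.6% lay within 1 kb of a TSS. Introns held 841 lost sites (51.9%, beside 50.3% of weighted kept sites), intergenic sequence 697 (43.0% beside 42.1%) and exons 83 (5.12%, 4.15% to 6.30%, beside 7.60%). A GC content of 60% or more was found in 31 lost sites (1.91%, 1.35% to 2.70%) and in 5.29% of weighted kept sites.

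**Figure D4:**
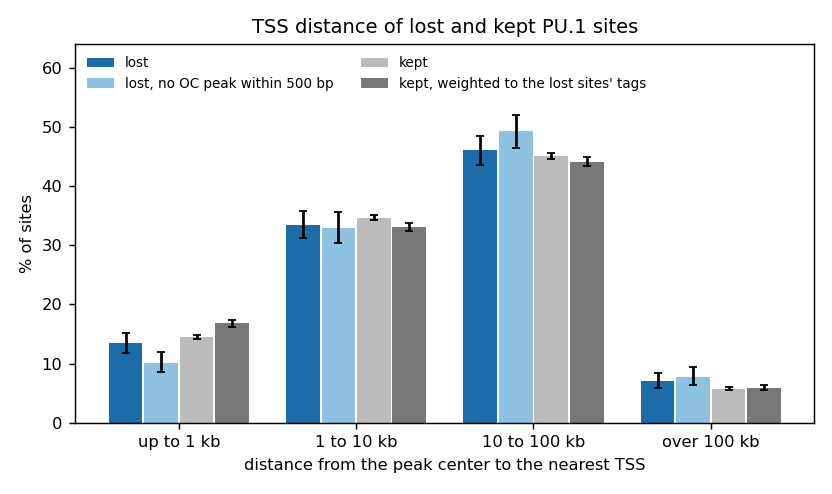
Percent of sites by distance of the peak center to the nearest GENCODE TSS, with 95% intervals, for lost sites, lost sites with no OC peak within 500 bp, kept sites, and kept sites weighted to the tag classes of the lost sites. Within 1 kb the bars stand at 13.45%, 10.1%, 14.5% and 16.8%, and at 10 to 100 kb at 46.0%, 49.2%, 45.1% and 44.1%.

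The highest lost sites within 1 kb of a TSS were those at Cluap1 and Mir146, which lay 70 bp and 26 bp from TSSs of the non-coding genes Gm15537 and Gm12148, followed by those near Sp100, Gpr35 and Ccl12. The site 408 bp from a TSS of Sp100, a nuclear body protein induced by interferon, scored 105.8 in MPs and 87.2 at 36 h, with an OC peak of 105.7 at 206 bp. The site 995 bp upstream of Gpr35, a G protein-coupled receptor, scored 87.0 and 82.8, with an OC peak of 101.3 at 2 bp. The site 152 bp from the TSS of Ccl12, a monocyte chemokine, scored 73.3 and 69.5, with an OC peak of 60.2 at 202 bp. Each of these 5 therefore had an OC peak beside it, within 206 bp.

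The AP-1 motif was more frequent at lost sites than at any other group of PU.1 sites examined. TGANTCA was found within 100 bp of the peak center at 326 of 1621 lost sites (20.1%, 18.2% to 22.1%), beside 10.9% (10.4% to 11.3%) of weighted kept sites, 12.4% of kept sites without weights and 11.55% of all PU.1 MP peaks. It was found at 289 of the 2365 sites that had neither a 36 h peak nor an OC peak (12.2%, 10.96% to 13.6%), and at 306 of the 4000 sites that lacked a peak at 36 h alone (7.65%, 6.87% to 8.52%). In each of the 5 tag classes the share was higher at lost than at kept sites, with 18.01% and 9.81% at 10 to 11 tags, 23.9% and 12.6% at 20 to 29 tags, and 17.1% (10.45% to 26.6%) and 13.6% at 30 or more, where the interval of the lost sites included the kept value. The motif was more frequent at lost sites with no OC peak within 500 bp (22.6%, 20.3% to 24.99%) than at those with an OC peak in that distance (12.7%). The difference was seen at each distance from a TSS, from 12.8% of lost and 7.35% of weighted kept sites within 1 kb to 22.6% and 13.1% beyond 100 kb.

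Counted the other way, 326 of 5690 sites with the AP-1 motif were lost (5.73%, 5.16% to 6.36%), against 1295 of 39202 sites without it (3.30%, 3.13% to 3.49%). With 10 to 11 MP tags these shares were 21.8% (18.4% to 25.5%) and 12.1% (11.2% to 13.1%), and with 20 to 29 tags they were 3.36% (2.46% to 4.58%) and 1.57% (1.32% to 1.88%). With 30 or more tags they were 0.563% and 0.432%, with intervals that overlapped. Lost sites with the motif had a median log2 ratio of 36 h over MP score of -0.21, and lost sites without it -0.35. At kept sites these medians were -0.11 and -0.21, so the score ratio at 36 h was higher with the motif in both groups.

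**Figure D5:**
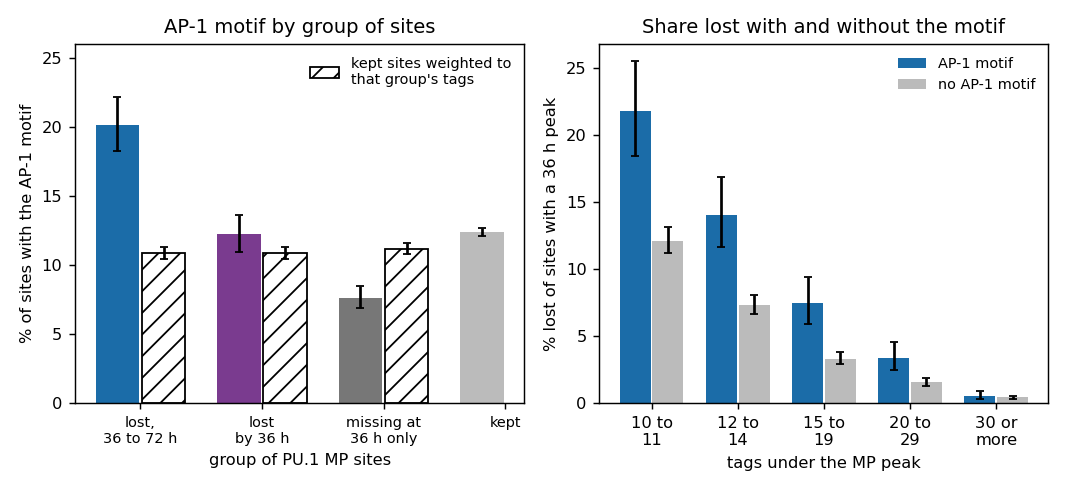
Left, percent of PU.1 MP sites with the AP-1 motif within 100 bp of the peak center in 4 groups of sites (solid bars) and in kept sites weighted to the tag classes of each group (hatched bars). Right, percent of sites lost by tags under the MP peak, for sites with and without the motif. Error bars are 95% intervals, and lost sites stand at 20.1% beside 10.9% of weighted kept sites.

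ETS motifs were less frequent at lost sites. The ETS core was found at 905 lost sites (55.8%, 53.4% to 58.2%) and at 62.9% (62.2% to 63.6%) of weighted kept sites, and the longer PU.1 motif, which contains the core, at 293 (18.1%, 16.3% to 20.02%) and 21.7% (21.1% to 22.3%). Sites that lacked a peak at 36 h alone held them in 54.9% and 17.3% of cases, and sites with neither later peak in 51.25% and 15.3%. Of lost sites with no OC peak within 500 bp, 57.7% (54.9% to 60.4%) held the ETS core, beside 62.6% of kept sites weighted to their tags. For the PU.1 motif the values were 19.4% (17.3% to 21.8%) and 21.3%, so the interval included the weighted kept value. Lost sites with an OC peak in that distance held the 2 motifs in 50.25% and 13.9% of cases. With 30 or more MP tags, 30.5% of lost and 29.97% of kept sites held the PU.1 motif. Both an AP-1 motif and an ETS core were found at 156 lost sites (9.62%, beside 5.96% of weighted kept sites), an AP-1 motif without an ETS core at 170 (10.5% beside 4.92%), and neither at 546 (33.7% beside 32.2%). Of the 12 motifs searched, the shares of C/EBP (TTGCNNAA, 10.7% beside 10.7%), NFAT-like (TGGAAA, 17.8% beside 17.8%), the combined ETS-IRF motif (5.80% beside 6.01%), the paired interferon response motif (3.52% beside 3.65%), the M-box E-box TCANGTG bound by MITF (10.8% beside 10.1%), the palindromic E-box CACGTG (3.21% beside 3.39%), KLF (GGGTGTGG, 1.54% beside 1.93%) and RUNX (TGTGGT, 17.95% beside 16.7%) at lost sites had intervals that included the weighted kept value. The NF-kappaB motif was found at 1 lost site (0.0617%, 0.0109% to 0.349%), beside 0.416% of weighted kept sites. Over all PU.1 MP peaks, in windows of the same length, these motifs were found at 62.0% (ETS core), 22.5% (PU.1), 10.98% (C/EBP), 18.3% (NFAT-like), 7.63% (ETS-IRF), 3.98% (paired interferon response motif), 10.4% (M-box), 3.23% (palindromic E-box), 1.86% (KLF), 17.4% (RUNX) and 0.286% (NF-kappaB). A match to these letters is a description of the sequence and does not show that a factor bound there.

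MITF peaks were rare at lost sites. A MITF peak of MPs overlapped 5 lost sites (0.309%, 0.132% to 0.720%), where 11.7% of all sites with a 36 h peak had one. A MITF 36 h peak overlapped 4 (0.247%, beside 7.35%) and a MITF OC peak 3 (0.185%, beside 9.14%), and 10 lost sites had a MITF peak at any time (0.617%, 0.335% to 1.13%). MITF peaks were concentrated at strong PU.1 peaks. At kept sites with fewer than 15 MP tags at most 0.0957% had a MITF peak in MPs, and with 30 or more tags 28.2% did. Kept sites weighted to the tags of lost sites in 5 classes had a MITF MP peak in 1.65% of cases, a MITF 36 h peak in 1.08%, a MITF OC peak in 1.46% and any MITF peak in 2.56%. With finer tag classes these values were 0.789%, 0.535%, 0.838% and 1.57%. The finer value for MITF 36 h peaks lay inside the interval of the lost sites (0.0960% to 0.633%), and the other 3 lay above theirs. Of the 82 lost sites with 30 or more tags, 9 had any MITF peak (10.98%, 5.88% to 19.6%), beside 36.8% of kept sites of that class. Inside this class the median MP tags were 38 at lost and 52 at kept sites, and the part of this in the difference was not tested. An IgG peak of MPs overlapped 0 of the 1621 lost sites, 3 of the 43271 kept sites and 4 of the 76159 PU.1 MP peaks on these chromosomes. Such overlap was thus rare in each group and does not set lost sites apart.

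In 9 of these 10 sites an OC peak of PU.1 lay within 220 bp. The Olfml2b site overlapped the strongest MITF peak, with a score of 121.7 at 36 h and 20.6 in OCs, and no MITF peak in MPs. The Slc25a25 site, in an exon of Naif1 and 1054 bp upstream of the TSS of this mitochondrial carrier gene, had a MITF peak in OCs alone (13.7), and the Cluap1 site had one in MPs alone (12.5). The Abcg1 site (11.4, in OCs) and the site near Tpr, a nuclear pore protein (11.4, in MPs), had the same MITF score. The median scores of the MITF lists were 12.5, 23.4 and 11.4, in order of time. Apart from those at Olfml2b and Slc25a25, the MITF peaks at these 10 sites scored at or below the median of their list. The exception without an OC peak of PU.1 close by was the site nearest to Gm15319, with a MITF score of 9.7 at 36 h and an OC gap of 3443 bp.

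The lost sites were spread over many genes. RefSeq symbols were found for the nearest transcripts of 1463 lost sites, which named 1291 genes, 1140 of them once. Cited2, a co-regulator that binds CBP and p300, had the most, with 4 lost among 54 sites. Next came 19 genes with 3 lost sites each, of which Ptpn5, a tyrosine phosphatase, lost 3 of 7 sites, and Ampd3, an AMP deaminase, 3 of 8. Cntnap2, a neurexin family member, Fto, an RNA demethylase, and Psmg1, a proteasome assembly factor, each lost 3 of 9. Each of these genes therefore had at least 4 sites with a 36 h peak that were not lost. This did not hold for all genes with fewer sites. Cox15, Gm10825, Pin4, Prom1, Srpk1, Vldlr and Ykt6, picked after their values had been seen, each lost 2 of 2.

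Genes of osteoclast function, such as those for acid secretion and matrix digestion, had 1 lost site among 141 sites at 28 genes (0.709%, 0.125% to 3.91%), where 3.61% of all sites were lost. The site lay 30507 bp from the TSS of Ostm1, a partner of the ClC-7 chloride transporter, and scored 37.5 in MPs and 10.3 at 36 h. Transcription factors of osteoclast differentiation lost 9 of 190 sites (4.74%, 2.51% to 8.76%), at 6 of 18 genes. The highest of these sites lay near Prdm1, a repressor of anti-osteoclast genes, with 52.9 in MPs, 51.7 at 36 h and an OC peak of 44.1 at 169 bp. A second Prdm1 site scored 35.8 and 26.6, with an OC peak at 395 bp. An intronic site of Pparg, a nuclear receptor, scored 44.4 and 25.1 with an OC peak of 22 at 55 bp. A site 437 bp from the TSS of Nfkb1, the p50 subunit gene, scored 30.7 and 29.6 with an OC peak of 14.7 at 291 bp. The rest lay near Mitf, Nfatc1, Pparg and Jun, with MP scores of 17.1 to 29. Each of the 4 highest had an OC peak within 395 bp. Genes that restrain osteoclast differentiation lost 6 of 284 sites (2.11%, 0.972% to 4.53%). Among them were sites near Id2, an inhibitor of helix-loop-helix factors (47.8 in MPs, 41.4 at 36 h), Rbpj, the Notch pathway factor (30.7 and 28.1), Tnfaip3, which ends NF-kappaB signalling (27.3 and 22.2), and Maf (20.5 and 10.3). The Id2 site was counted in the dendritic cell list below as well. Both lists of regulators had intervals that included 3.61%.

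Surface genes of monocytes and macrophages lost 4 of 166 sites (2.41%, 0.941% to 6.03%). They included sites near Clec4d, a C-type lectin (34.1 in MPs, 35.5 at 36 h), Fcgr1 and Marco (17.1 and 16.3 at each). Genes of dendritic cells and antigen presentation lost 6 of 145 (4.14%, 1.91% to 8.73%), none with an OC peak within 500 bp. These included sites near Tcf4 (40.9 and 28.1), Batf3 (37.5 and 44.3) and Irf4 (27.3 and 35.5), transcription factors of dendritic cells, of which the latter pair had a higher score at 36 h than in MPs. Toll-like receptor and inflammatory genes lost 1 of 176 sites (0.568%, 0.100% to 3.15%), an intronic site of Il10 with scores of 23.9 and 34. The median site of this list had 29 MP tags, beside 24 over all sites with a 36 h peak, and the effect of this on the share was not tested. Interferon response genes lost 4 of 105 (3.81%, 1.49% to 9.39%), near Ifnar1, a receptor chain of type I interferon (66.5 and 48.8), Irf1 (27.3 and 42.9), Oas3 (22.2 and 17.7) and Ifi204 (18.8 and 10.3).

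The lists of other cells and of cell division gave small counts. Granulocyte genes lost 2 of 31 sites (6.45%, 1.79% to 20.7%), near Mmp8, a neutrophil collagenase (27.3 and 11.8), and Csf3r, the G-CSF receptor (17.1 and 13.3). B cell genes lost 1 of 61 (1.64%, 0.290% to 8.72%), near Ebf1. T cell and erythroid genes lost 2 of 37 (5.41%, 1.50% to 17.7%), near Cd3d and Lef1. Cell cycle genes lost 4 of 94 (4.26%, 1.67% to 10.4%), near Ccnd2 (22.2 and 37.0), E2f2 (20.5 and 10.3), Cdk1 (17.1 and 23.7) and Ccnd1 (17.1 and 14.8). In 10 of the 11 lists the interval included the share of all sites, and the exception was that of Toll-like receptor and inflammatory genes. The median MP tags of a list's sites ran from 19 (T cell and erythroid) to 34 (monocyte and macrophage surface), with 26 for osteoclast function. They were below the 24 of all sites only in the T cell and erythroid list and the granulocyte list (22). The effect of these tags on the shares was not tested.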

How the data were processed

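ChIP-Seq of PU.1 and MITF in MPs, at 36 h of RANKL and in OCs, and of IgG in MPs, gave 7 peak lists, 1 library per condition. Per the labels, base calls came from CASAVA 1.8, reads were mapped with Bowtie2 to mm9 and peaks were called with HOMER. Bowtie2 and HOMER versions and peak calling parameters are not given in the sources used here. The authors deposited for each peak a score, which is its number of tags scaled to a common library size, and the nearest RefSeq transcript. The tags per peak were recovered by dividing scores by the value of 1 tag, with a largest deviation of 0.0510 in the PU.1 lists. With HOMER's default scale, which is assumed, the PU.1 libraries held 5860000 (MP), 6770000 (36 h) and 6810000 (OC) tags. Reads were not analysed here, so tags at a site without a listed peak are unknown, and a peak can be missing because its tags fell just short of the lowest listed value.

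Samples were grouped by their titles. Peaks matched with an overlap of at least 1 bp. Distances to the nearest TSS and positions in exons and introns were taken at the peak center from GENCODE on mm9, the build of the lists, and motifs were searched on both strands in mm9 within 100 bp of the center. Shares have 95% Wilson intervals, and kept sites were weighted to 5 classes of MP tags (10 to 11, 12 to 14, 15 to 19, 20 to 29, and 30 or more), with normal intervals. Intervals cover counting error only. RefSeq symbols were found for 1463 of the 1621 lost sites. No test was run, because no condition had a replicate. The functions for overlap, distance, tags and intervals were tested on simulated peaks, and 0 checks failed (Python 3.11.15, numpy 2.4.6, scipy 1.17.1, matplotlib 3.10.9).

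The lost sites, gene lists and motifs were chosen with earlier results of these data known. Sites named are the 10 highest by MP score and by 36 h score, the 5 highest by MITF score and by MP score within 1 kb of a TSS, the 5 genes with the most lost sites and up to 4 sites per gene list. Some sites that this rule names are not reported here. Others are said to have been chosen after their values were seen, as was the AP-1 motif among the 12 motifs. Alternatives were other score minimums, other definitions of overlap and of absence, a minimum at 36 h, exclusion of IgG peaks, protein-coding genes, other motif windows and narrower 36 h peaks. The last of these and the alternatives for AP-1 were added after seeing the data.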

Additional observations from a re-analysis of the deposited data

How the results depend on the processing

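Of 103 recomputed values, 59 stayed within the interval of the reported value (for the number of sites, within 1.5 times), 43 moved and 1 changed sign. The number and share of lost sites followed the definition. Without a score minimum 4750 sites (8.438%) were lost, with a minimum of 25 there were 517 (1.51%), with 34 there were 241 (0.8911%), and with a score of at least 17 at 36 h as well there were 862 (2.207%). The share was 2.715% when no OC peak was allowed within 500 bp, and 1027 sites (2.288%) remained at 1000 bp. The median log2 ratio of 36 h over MP was 0.01 with no score minimum, which turned its sign, -0.38 with a minimum of 34, -0.01 with the 36 h minimum and -0.22 after 36 h scores were divided by the median ratio of all pairs.

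Sites within 1 kb of a TSS made up 15.35% with a minimum of 34, 15.2% with the 36 h minimum, 11.84% for protein-coding genes, and 10.09% and 9.056% with no OC peak within 500 bp and 1000 bp. With these distances, 49.22% and 49.56% lay 10 to 100 kb from a TSS. The share with a MITF MP peak was 0.1263% with no score minimum, 0.9671% and 2.075% with minimums of 25 and 34, 1.295% when a MITF peak within 500 bp counted, and 0 with no OC peak within 500 bp or 1000 bp. For MITF at 36 h it was 1.245% with a minimum of 34 and 0.08203% with no OC peak within 500 bp. For MITF in OCs it was 0.5803% and 1.245% with minimums of 25 and 34, 0.802% within 500 bp, 0.06211% with 36 h peaks narrowed to 150 bp, and 0 with no OC peak within 500 bp or 1000 bp. The AP-1 motif share was 17.14% with no score minimum, 22.82% with a minimum of 25, 22.74% with the 36 h minimum, 22.56% and 22.4% with no OC peak within 500 bp and 1000 bp, and 12.34% and 27.58% with 50 bp and 200 bp on each side. In these 2 windows weighted kept sites held the motif in 6.67% and 16.85% of cases. The PU.1 motif share was 20.74% with no OC peak within 1000 bp. The cause of these shifts was not tested, apart from the wider or narrower window of a motif.

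No paired analysis was possible because each condition has 1 library; for the same reason leaving out a replicate was not possible. The lists hold no TSS distance, so the planned use of the deposited distance was not run. The lowest lost sites had 10 MP tags and the lowest listed OC peaks 7 tags, so the lists show no OC signal below 7 tags, and the part of depth in the losses was not tested.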

Other observations

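In the opposite direction, 2131 of the 45329 PU.1 OC sites with a score of at least 17 and a 36 h peak had no MP peak (4.70%, 4.51% to 4.90%). Beside it, 3.61% of MP sites were lost between 36 h and 72 h. The score minimum stood for more tags in OCs, where 1 tag was worth 1.47, than in MPs, where it was worth 1.71. The MP library, in which peaks were missing here, also held fewer tags (5860000 beside 6810000 in OCs, with HOMER's default scale). The part of these differences in the 2 shares was not tested. The 2 shares come from the same 3 lists.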
